A study of Mus musculus with 6 samples.

Results

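The 37 Hox genes listed in RNA sequencing of cultured mouse aortic cells, labelled as smooth muscle, are described here by cluster and by paralogue number. Members are the rows whose gene symbol consists of Hox, a cluster letter from a to d and a number, 37 of 25939 listed genes. The annotation holds 39 mouse genes named in this way. Hoxb1 and Hoxd1 are not among the listed rows and were not analysed here. The cells came from mouse aorta and were treated for 48 h with trimethylamine N-oxide (TMAO), which the liver makes from a product of gut bacteria, or as controls, with 3 libraries per group. The cells are labelled vascular smooth muscle cells of the aorta. The labels do not give the segment of aorta, the strain, age and sex of the mice, the dose or the vehicle. Nor do the labels say whether libraries of a group came from separate animals or cultures, so the spread between libraries and each p-value may be technical.

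Hox genes code for homeodomain transcription factors that give cells of the embryo their position along the head to tail axis. They lie in 4 clusters, and paralogue numbers run along each cluster so that low numbers are used toward the head and high numbers toward the tail. Smooth muscle cells of the aortic arch derive from neural crest and those of the descending aorta from paraxial mesoderm, and many adult mesenchymal cells keep the Hox pattern of the site they came from, also in culture. Their proteins bind DNA together with cofactors of the TALE class (Pbx, Meis and Pknox proteins). Polycomb complexes keep silent Hox genes silent, trithorax complexes keep active ones active, and retinoic acid sets the early pattern.

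The clusters also carry microRNA genes of the miR-10 and miR-196 families, whose mature forms repress mRNAs, among them Hox mRNAs. Their mature sequences from RefSeq (GRCm38.p6) are shown because both families sit inside the Hox clusters and share a seed within each family. Capitals mark the seed, bases 2 to 8.
miR-10a-5p, in the Hoxb cluster: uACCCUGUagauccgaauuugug
miR-10b-5p, in the Hoxd cluster: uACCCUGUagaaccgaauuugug
miR-196a-5p, in the Hoxb and Hoxc clusters: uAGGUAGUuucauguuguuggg
miR-196b-5p, in the Hoxa cluster: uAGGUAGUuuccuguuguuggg
The miR-196a sequence was matched to the longest annotated 3' end of each Hox mRNA. Hoxb8 held a stretch that paired with 21 of its 22 bases, and of 16071 listed genes with an annotated 3' untranslated region only 1, Hoxb8, had a stretch pairing with at least that many. In mouse embryos miR-196 is known to direct cleavage of Hoxb8 mRNA at this kind of site. The site lies at chr11:96284888-96284909 on the plus strand of mm10, in the 3' untranslated region, with the bases opposite the seed in capitals.
Hoxb8 site, 5' to 3': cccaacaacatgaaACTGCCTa
The 1 difference from the full complement of miR-196a is A18G, counted from 1 at the 5' end of the site. The complement of the seed, ACTACCT, was read on the mRNA strand alone. It was in the 3' untranslated region of 8 of 37 Hox genes (21.6%) and of 6.61% of the 16071 genes. A match of letters is a description and does not show use of the site.

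The libraries held 14991252 to 16806728 reads by the totals that the FPKM values imply. FPKM scales fragments to exon length and library total, so levels of different genes can be set side by side, but only roughly. The length here is that of all annotated exons of a gene together, for example 5580 bases for Hoxa9. Where the mRNA in use is shorter than that, the FPKM comes out too low. The TMAO libraries had fewer genes at 0, 5095 to 5590, against 5973 to 6640 in the Control libraries, and TMAO 1 had the fewest. Among smooth muscle markers, actin (Acta2) averaged 485 FPKM over the 6 libraries, Smtn 4.46 and Lmod1 2.09 FPKM, whereas Tagln, Cnn1, Myocd and the myosin gene Myh11 were each below 1 FPKM. Of 7 stromal markers 6 were tested, and Ly6a, Pdgfra and Dcn averaged 412, 25.2 and 20.7 FPKM. The lowest of the 7 averaged 0.130 FPKM. Of 5 macrophage markers, Lyz2 averaged 73.5, Cd68 4.22, Csf1r 0.768, Adgre1 0.505 and the general leukocyte marker Ptprc 0.0400 FPKM. The summed level of 4 listed endothelial markers was 0.235 to 0.329 FPKM in TMAO and 0.268 to 0.311 FPKM in Control. Of the 7 smooth muscle markers, 4 thus lay below 1 FPKM under that label, namely Tagln and Myocd as well as Myh11 and Cnn1, which mark the contractile state. In bulk RNA, fewer cells using a gene and less of its RNA per cell cannot be told apart.

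The cells held a Hox pattern centred on paralogue numbers 5 to 10. Summed over members, number 6 gave 26.2 ± 1.55 FPKM in TMAO and 22.7 ± 1.29 FPKM in Control, number 7 23.3 ± 0.180 FPKM in TMAO and 21.7 ± 0.0796 FPKM in Control and number 10 17.0 ± 0.808 FPKM in TMAO and 17.1 ± 0.680 FPKM in Control (SD, n = 3 each). Numbers 12 and 13 were each below 1 FPKM. Number 11, with 5.14 ± 0.537 FPKM in TMAO and 5.56 ± 0.135 FPKM in Control, was the highest number above that level. In every library the central numbers 4 to 8 made up 64.0% to 67.2% of the summed Hox level, the posterior numbers 9 to 13 28.8% to 32.3%, and the anterior numbers 1 to 3 3.71% to 4.44%.

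**Figure D1:**
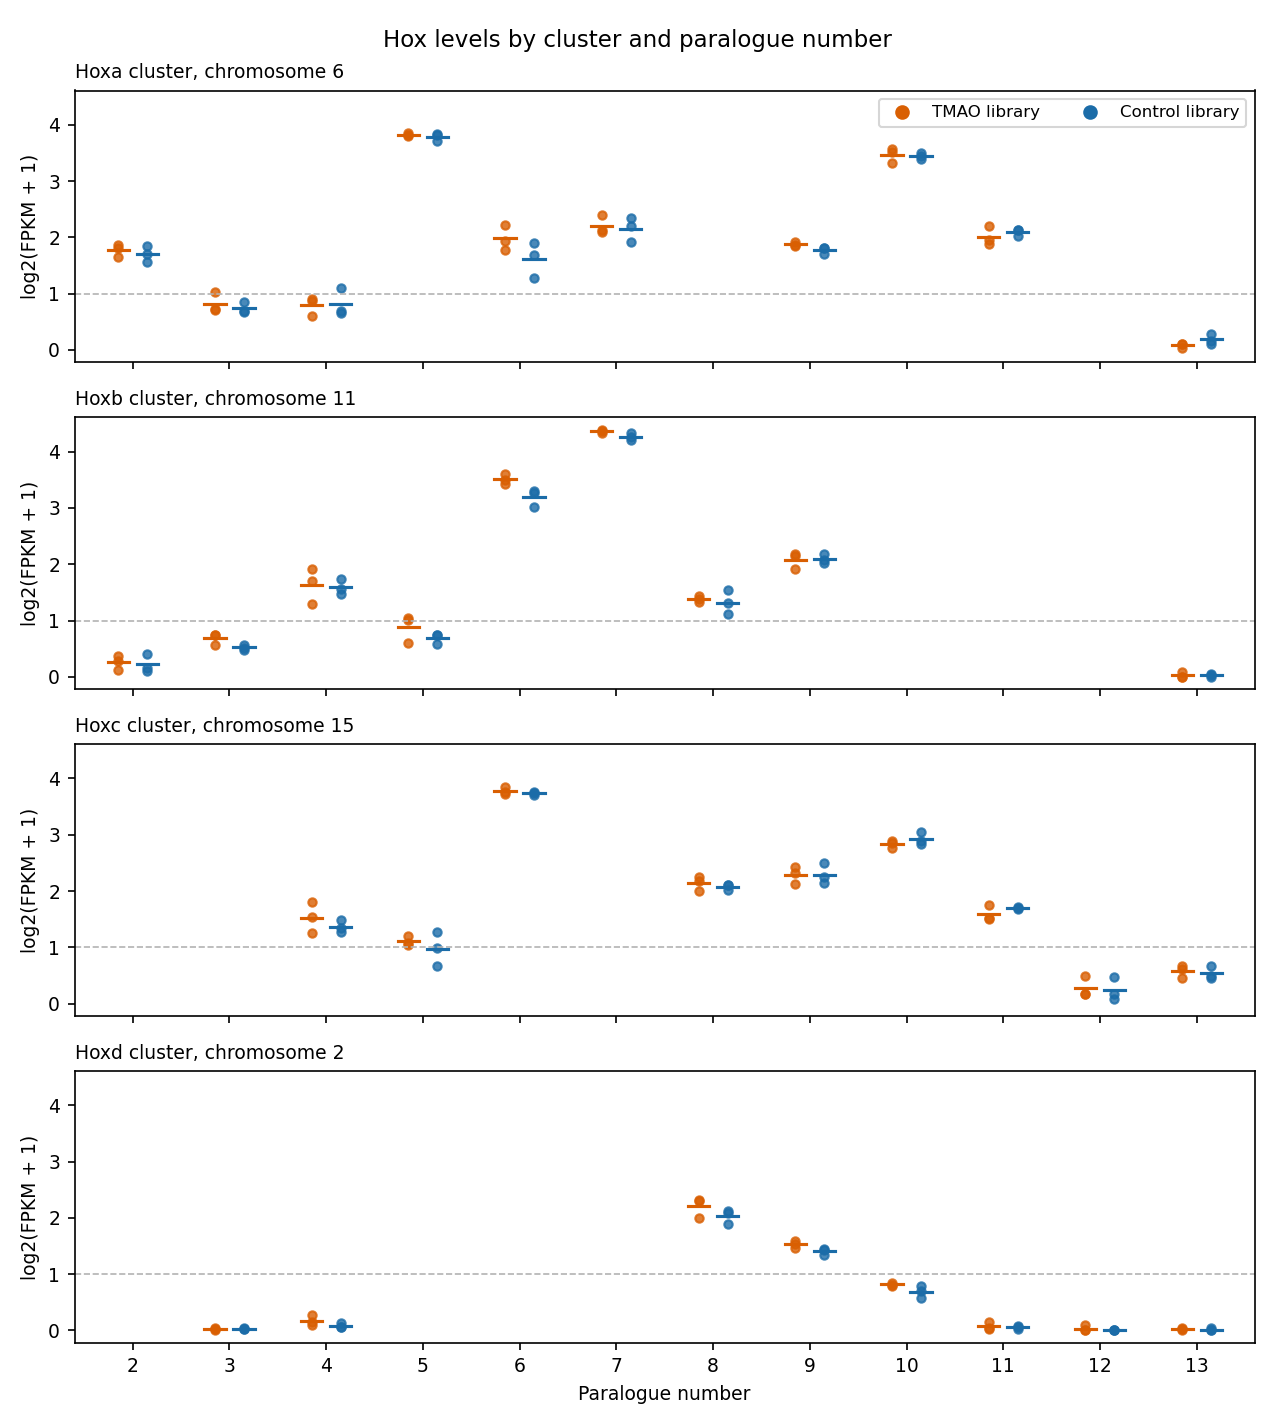
Level of the listed Hox genes of paralogue numbers 2 to 13 as log2(FPKM + 1), by cluster (panels) and paralogue number (horizontal axis), with 1 point per library, TMAO in orange and Control in blue, and a short line at each mean; the dashed line is at 1 FPKM. Hoxb7 is highest, the Hoxd cluster is above the dashed line at numbers 8 and 9 alone, and number 13 is below it in every cluster.

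Hoxd stood apart from the other clusters in summed level (values of single libraries are in the order of replicates 1 to 3). The Hoxa cluster (chr6:52155590-52260880, 11 listed members) summed to 40.8, 40.6 and 40.2 FPKM in the TMAO libraries and 37.5, 39.5 and 38.8 FPKM in the Control libraries. The Hoxb cluster (chr11:96194316-96354012, 9 members) summed to 40.8, 35.9 and 39.6 FPKM in the TMAO libraries and 33.3, 35.7 and 34.6 FPKM in the Control libraries. In both clusters the TMAO sums lay above the Control sums as deposited, by a ratio of means of 1.05 for Hoxa and 1.12 for Hoxb. Divided by median-ratio factors (1.05 for TMAO 1 and 0.984 for Control 3), the Hoxa groups overlapped. Hoxa also overlapped between groups as a share of the summed Hox level. For levels of single genes, 12.4% of all tested genes had all TMAO values above all Control values. The Hoxc cluster (chr15:102921103-103036852, 9 members) summed to 33.3, 31.7 and 31.2 FPKM in the TMAO libraries and 30.1, 33.7 and 30.7 FPKM in the Control libraries. The Hoxd cluster (chr2:74668310-74748442, 8 members) summed to 7.15, 5.69 and 6.75 FPKM in the TMAO libraries and 5.14, 5.82 and 5.57 FPKM in the Control libraries. The groups overlapped in Hoxc and Hoxd. Hoxd was lowest in every library. In Control every Hoxa sum lay above every Hoxb sum, whereas in TMAO the sums of Hoxa and Hoxb overlapped. As a share of the summed Hox level, Hoxb took 32.9% ± 1.15 in TMAO and 31.3% ± 0.220 in Control and Hoxc 27.2% ± 0.690 in TMAO and 28.6% ± 0.724 in Control (SD, n = 3 each). Sums are descriptions, and no test was made of them.

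**Figure D2:**
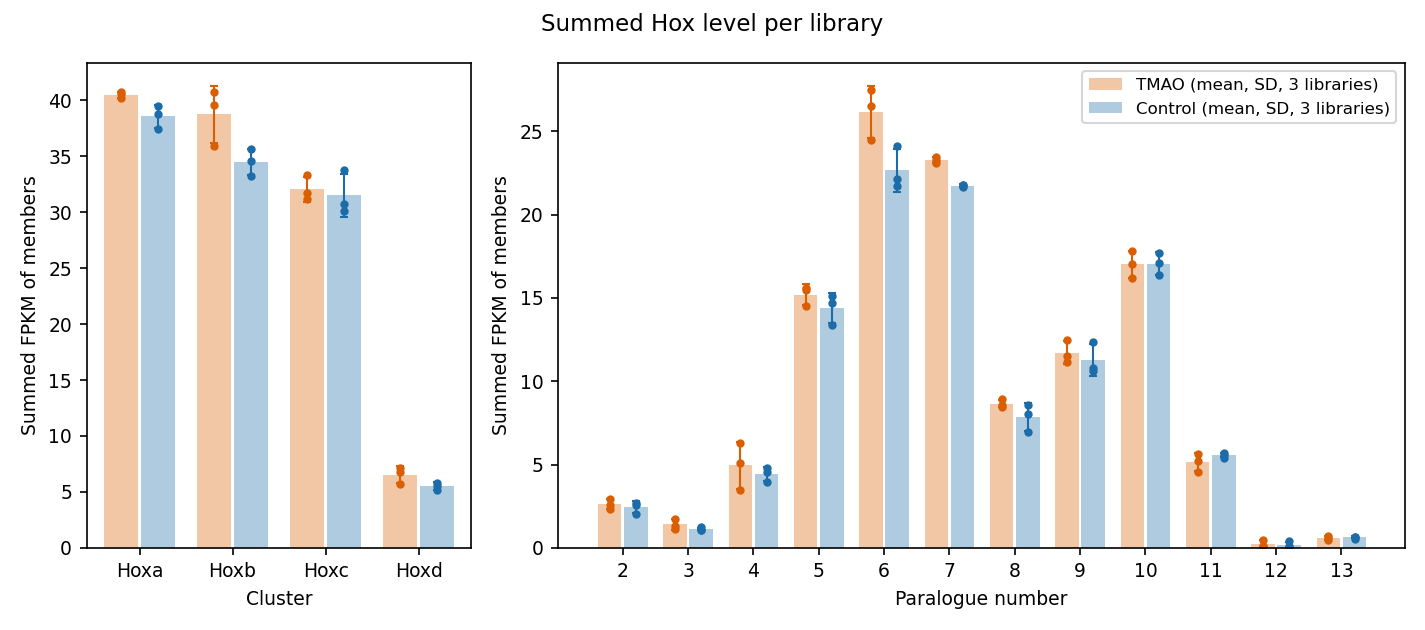
Summed FPKM of the listed Hox genes by cluster (left) and by paralogue number from 2 to 13 (right), with bars at the mean of 3 libraries, error bars of 1 SD and 1 point per library, TMAO in orange to the left of Control in blue. Numbers 6 and 7 are highest, and their 3 TMAO points lie above the 3 Control points as deposited. For number 7 the groups overlapped after division by median-ratio factors.

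Of the 37 genes, 3 averaged at least 10 FPKM over the 6 libraries and 21 at least 1 FPKM. In the order of levels, Hoxb7 came first at 18.9 FPKM, followed by Hoxa5 (12.99), Hoxc6 (12.5), Hoxa10 (9.99), Hoxb6 (9.32) and Hoxc10 (6.37). These 6 were the members above 5.97 FPKM, the median of the 11062 tested genes. Among the 20 pairs of neighbours in the order of the 21 genes, the ranges of the 6 libraries were apart in 3, namely Hoxb7 over Hoxa5, Hoxc6 over Hoxa10 and Hoxc10 over Hoxc9. In the other 17 pairs the ranges overlapped, which does not exclude a fixed order within each library. Hoxb6, for instance, stood above Hoxc10 in each of the 6 libraries.

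No Hox gene passed the test of TMAO against Control. Limma on log2(FPKM + 1) was run on genes that reached 1 FPKM in 3 or more libraries, and 21 Hox genes qualified. At a limma adjusted p of 0.05 over all genes 0 of the 21 were called, where 0.181% of all 11062 tested genes were, 0.0723% as higher and 0.108% as lower in TMAO. Voom on recovered reads also called 0, where it called 0.89% of all 10893 genes fitted. At an unadjusted p under 0.05, 1 Hox gene remained, Hoxb6, beside 13.1% of all tested genes. All 3 TMAO values exceeded all 3 Control values for 4 tested members, where 12.4% of all tested genes did so, and all 3 lay below the Control values for 0, where 6.23% did. The log2 fold changes of tested members ran from -0.10 to 0.36, with a median of 0.058 beside 0.025 for all tested genes. On this scale a fold change comes out too small for a gene of low level.

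**Figure D3:**
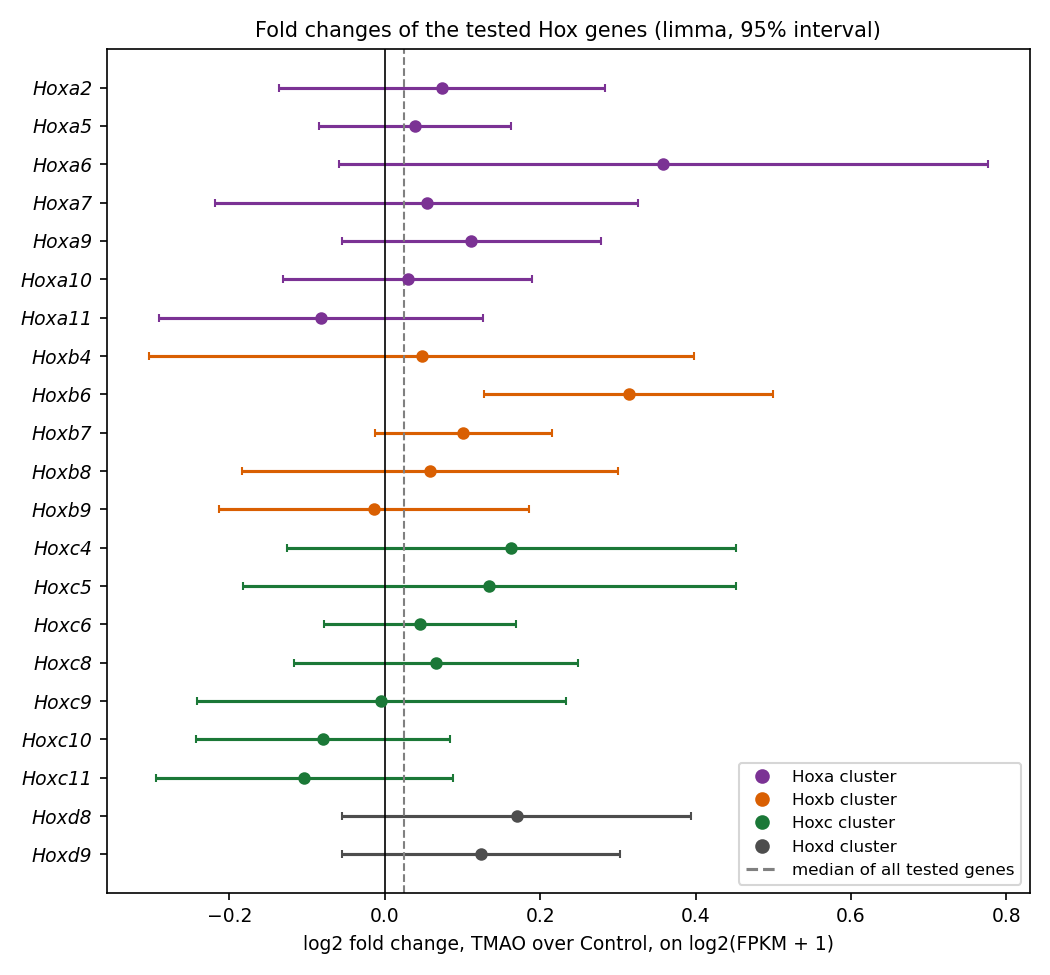
Log2 fold change, TMAO over Control, of the 21 tested Hox genes with its 95% limma interval (horizontal axis), coloured by cluster, with a solid line at 0 and a dashed line at the median of all tested genes. The interval of Hoxb6 alone excludes 0, before adjustment for the number of genes.

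Among the anterior members Hoxa2, which sets the identity of the second pharyngeal arch and part of the hindbrain, had 2.63, 2.51 and 2.14 FPKM in the TMAO libraries and 1.95, 2.24 and 2.58 FPKM in the Control libraries. The groups overlapped (log2 fold change 0.074, limma adjusted p = 0.794). Hoxa3, needed for the thymus and parathyroid, averaged 0.779 ± 0.232 FPKM in TMAO and 0.672 ± 0.109 FPKM in Control (SD, n = 3 each). Hoxb3 averaged 0.610 ± 0.120 FPKM in TMAO and 0.437 ± 0.0463 FPKM in Control, and Hoxb2 0.198 ± 0.103 FPKM in TMAO and 0.173 ± 0.132 FPKM in Control. These 3 genes were below the filter and not tested. Exons of other genes on either strand cover 52.9% of the exon bases of Hoxb3, 27.3% of those of Hoxb2 and 27.1% of those of Hoxa3, so their levels are uncertain.

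Hoxb6 was the member with the smallest p. Genes of this number are known to promote ribs on thoracic vertebrae in mice. Hoxb6 (ENSMUSG00000000690, chr11:96292476-96301569, plus strand) had 11.2, 9.74 and 10.3 FPKM in the TMAO libraries and 7.12, 8.86 and 8.66 FPKM in the Control libraries. All 3 TMAO libraries were above the highest Control library, and TMAO 1 was highest. The log2 fold change was 0.31 ± 0.0839 (SE), with an interval of 0.13 to 0.50 and a limma adjusted p = 0.164. Without TMAO replicate 1 it was 0.26, and over all alternatives it ranged from 0.23 to 0.36. Hoxc6, its paralogue, had 12.6, 12.3 and 13.4 FPKM in the TMAO libraries and 12.4, 12.5 and 12.1 FPKM in the Control libraries. Hoxa6 had 3.67, 2.44 and 2.82 FPKM in the TMAO libraries and 2.21, 2.73 and 1.43 FPKM in the Control libraries, with overlapping groups for both genes. The log2 fold change of Hoxa6 was 0.36 (interval -0.059 to 0.78, limma adjusted p = 0.454) and that of Hoxc6 0.045 (interval -0.078 to 0.17, limma adjusted p = 0.783). For Hoxa6, whose log2 fold change was the largest of the tested members, the value was 0.19 without Control replicate 3, 0.24 without TMAO replicate 1 and 0.53 with voom. Hoxa6 rests on 210 reads over the 6 libraries, against 2848 for Hoxc6.

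Hoxb7 (ENSMUSG00000038721, chr11:96286623-96290162, plus strand), a patterning gene of the trunk, had 19.8, 19.2 and 19.96 FPKM in the TMAO libraries and 19.0, 17.5 and 18.2 FPKM in the Control libraries. The TMAO libraries were again above the Control libraries as deposited, with a log2 fold change of 0.10 (interval -0.013 to 0.22, limma adjusted p = 0.446). With median-ratio factors the log2 fold change was 0.063 and the groups overlapped. Hoxa7, its only paralogue in the mouse, had 3.37, 4.27 and 3.29 FPKM in the TMAO libraries and 2.78, 4.11 and 3.58 FPKM in the Control libraries. Control 1 was lowest and TMAO 2 highest, and the groups overlapped (log2 fold change 0.054, limma adjusted p = 0.897). Exons of other genes on either strand cover 20.4% of its exon bases.

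Hoxa5 (ENSMUSG00000038253, chr6:52201754-52204587, minus strand), which acts in lung and cervical to thoracic patterning, was the member of number 5 with the highest level and had 13.2, 12.9 and 13.4 FPKM in the TMAO libraries and 12.1, 13.05 and 13.2 FPKM in the Control libraries. Its groups overlapped, with a log2 fold change of 0.039 (interval -0.085 to 0.16, limma adjusted p = 0.818). Hoxc5 had 1.31, 1.06 and 1.12 FPKM in the TMAO libraries and 0.582, 0.989 and 1.43 FPKM in the Control libraries, with Control 1 lowest and Control 3 highest (log2 fold change 0.13, limma adjusted p = 0.746). It lay just above the level of 1 FPKM, at 1.08 FPKM over the 6 libraries. Hoxb5 averaged 0.864 ± 0.300 FPKM in TMAO and 0.609 ± 0.102 FPKM in Control and was not tested.

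Number 4 was represented in all clusters at lower levels. Hoxb4, known for the expansion of blood stem cells, had 2.76, 1.44 and 2.26 FPKM in the TMAO libraries and 1.76, 2.33 and 1.95 FPKM in the Control libraries. Hoxc4 had 2.47, 1.39 and 1.90 FPKM in the TMAO libraries and 1.53, 1.81 and 1.41 FPKM in the Control libraries. TMAO 1 was highest and TMAO 2 lowest for both genes, so that the spread within TMAO exceeded the distance between the group means (log2 fold changes 0.047 and 0.16, limma adjusted p = 0.932 and 0.650). Hoxa4 averaged 0.742 ± 0.201 FPKM in TMAO and 0.789 ± 0.320 FPKM in Control and was not tested. Hoxd4, which shares 52.3% of its exon bases with Hoxd3 and Gm28230 on the same strand, averaged 0.126 ± 0.0709 FPKM in TMAO and 0.0586 ± 0.0276 FPKM in Control and is uncertain for that reason.

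Number 8 comprised Hoxb8, Hoxc8 and Hoxd8, which pattern the thoracic and upper lumbar trunk. Hoxd8 had 3.90, 3.02 and 3.99 FPKM in the TMAO libraries and 2.72, 3.36 and 3.25 FPKM in the Control libraries. Hoxc8 had 3.50, 3.76 and 3.01 FPKM in the TMAO libraries and 3.06, 3.30 and 3.30 FPKM in the Control libraries. Hoxb8, whose mRNA carries the miR-196a match printed above, had 1.52, 1.69 and 1.59 FPKM in the TMAO libraries and 1.16, 1.91 and 1.47 FPKM in the Control libraries, with Control 1 lowest and Control 2 highest. None of the 3 separated the groups, and their log2 fold changes were 0.17, 0.066 and 0.058 (limma adjusted p = 0.524, 0.787 and 0.873). Hoxb8 stood below Hoxc8 and Hoxd8 in each of the 6 libraries.

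Of number 9, which marks the thoracic level in the spinal cord through Hoxc9, all 4 genes were tested. Hoxc9 had 4.36, 3.97 and 3.35 FPKM in the TMAO libraries and 3.73, 4.62 and 3.40 FPKM in the Control libraries. Hoxb9 had 3.53, 2.78 and 3.45 FPKM in the TMAO libraries and 3.05, 3.56 and 3.24 FPKM in the Control libraries. Hoxa9, better known from blood cells and leukaemia, had 2.60, 2.66 and 2.80 FPKM in the TMAO libraries and 2.51, 2.50 and 2.24 FPKM in the Control libraries, and its TMAO libraries lay just above the Control libraries. Hoxd9 had 2.01, 1.76 and 1.90 FPKM in the TMAO libraries and 1.53, 1.71 and 1.73 FPKM in the Control libraries, likewise without overlap. The log2 fold changes were 0.11 for Hoxa9 and 0.12 for Hoxd9 (limma adjusted p = 0.579 and 0.566), and -0.014 for Hoxb9 and -0.0043 for Hoxc9 (limma adjusted p = 0.967 and 0.991). With median-ratio factors the log2 fold change of Hoxa9 was 0.083 and its groups overlapped. Hoxb9 and Hoxc9 share a run of 50 identical bases and Hoxa6 and Hoxb4 one of 52, the 2 longest in 511 pairs of members from different clusters. The read length is not stated by the sources used here, so reads of these stretches could be shared.

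Numbers 10 and 11 pattern the lumbar and sacral region and the limbs. Hoxa10 (ENSMUSG00000000938, chr6:52231197-52240854, minus strand), which suppresses ribs on lumbar vertebrae, had 9.01, 10.8 and 10.5 FPKM in the TMAO libraries and 10.2, 9.87 and 9.48 FPKM in the Control libraries. Hoxc10 (ENSMUSG00000022484, chr15:102966796-102971893, plus strand) had 6.40, 6.24 and 5.84 FPKM in the TMAO libraries and 6.11, 7.23 and 6.39 FPKM in the Control libraries. Both had overlapping groups, with log2 fold changes of 0.029 (interval -0.13 to 0.19) and -0.08 (interval -0.24 to 0.084). Hoxd10, which acts in lumbar motor neurons, was below the filter at 0.765 ± 0.0329 FPKM in TMAO and 0.615 ± 0.121 FPKM in Control (SD, n = 3 each). It had 24, 22 and 20 reads in the TMAO libraries and 20, 17 and 15 reads in the Control libraries. Its lowest TMAO value and its highest Control value thus tied at 20 reads and differed in FPKM by library total alone.

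Hoxa11, which acts in the forearm and the uterus, had 3.63, 2.85 and 2.68 FPKM in the TMAO libraries and 3.38, 3.08 and 3.36 FPKM in the Control libraries. Exons of the antisense gene Hoxa11os cover 34.98% of its exon bases, so its level is uncertain. Hoxc11 had 1.89, 2.36 and 1.85 FPKM in the TMAO libraries and 2.21, 2.27 and 2.27 FPKM in the Control libraries. In the Hoxd cluster the same number was nearly silent, with Hoxd11 at 0.0538 ± 0.0536 FPKM in TMAO and 0.0404 ± 0.0237 FPKM in Control. Groups overlapped for Hoxa11 (log2 fold change -0.082, limma adjusted p = 0.768) and for Hoxc11 (log2 fold change -0.10, limma adjusted p = 0.668).

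The most posterior genes marked the far end of the pattern. Hoxc13, known for its role in hair and nails, was the highest of them, with 0.369, 0.535 and 0.596 FPKM in the TMAO libraries and 0.379, 0.593 and 0.411 FPKM in the Control libraries. Hoxc12 averaged 0.221 ± 0.165 FPKM in TMAO and 0.191 ± 0.173 FPKM in Control (SD, n = 3 each). Hoxa13 and Hoxd13 act in digits and the genital tract. Hoxa13 averaged 0.0588 ± 0.0276 FPKM in TMAO and 0.139 ± 0.0694 FPKM in Control, from 3, 3 and 1 reads in the TMAO libraries and 8, 3 and 5 reads in the Control libraries. It was the single member whose 3 TMAO FPKM values lay below its 3 Control values. In reads TMAO 1, TMAO 2 and Control 2 tied at 3, so that order came from the library totals. Hoxd13 had 1, 0 and 1 reads in the TMAO libraries and 1, 0 and 0 reads in the Control libraries. Hoxd12 had 3, 0 and 0 reads in the TMAO libraries and 0, 0 and 0 reads in the Control libraries, and a count of 0 allows up to 0.0788 FPKM in Control 1 (3 reads, counting error only). Hoxb13, a gene of the tail bud and prostate, had 0, 0 and 2 reads in the TMAO libraries and 1, 0 and 1 reads in the Control libraries. Hoxd3 had 1, 2 and 0 reads in the TMAO libraries and 2, 1 and 1 reads in the Control libraries, and 62.3% of its exon bases are shared with Hoxd4 and Gm28230 on the same strand. At this depth no difference between the groups was detectable for Hoxd3, Hoxd12, Hoxd13 and Hoxb13.

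The signs of the log2 fold changes were also counted by range of paralogue numbers. All 12 tested central members were above 0 and 3 of 8 tested posterior members were, where 60.0% of all tested genes were above 0. Counting members below the filter too, the TMAO mean was higher in 14 of 15 central, 10 of 16 posterior and 5 of 6 anterior members. The central count was 8 of 12 without Control replicate 1 and 11 of 12 with quantile normalization, without TMAO replicate 1 and without TMAO replicate 2. The posterior count ran from 2 to 5 of 8 over all alternatives. Central genes summed to 81.3, 74.4 and 79.1 FPKM in the TMAO libraries and 67.8, 73.9 and 71.6 FPKM in the Control libraries, without overlap. Posterior genes summed to 35.3, 34.96 and 34.0 FPKM in the TMAO libraries and 34.3, 36.6 and 33.2 FPKM in the Control libraries, with overlap. As shares of the summed Hox level both ranges overlapped between groups, with 66.4% ± 0.987 in TMAO and 64.6% ± 0.694 in Control for central and 29.5% ± 1.04 in TMAO and 31.5% ± 1.06 in Control for posterior genes. Among the shares of numbers 1 to 13, those of numbers 6 and 11 alone were apart between groups. For levels of single genes, 12.4% of all tested genes were apart with TMAO above and 6.23% with TMAO below. The shares are parts of 1 total and so depend on each other, and number 6 includes Hoxb6. The share of number 6 was 22.2% ± 0.615 in TMAO and 20.6% ± 0.426 in Control, with all 3 TMAO libraries above the Control libraries. That of number 11 was 4.36% ± 0.417 in TMAO and 5.05% ± 0.301 in Control, with all 3 TMAO libraries below the Control libraries. The difference between ranges was noticed in these data and not tested. The TMAO libraries also listed fewer genes at 0, whose part in the result was not tested. TMAO 1 was the highest library for 7 of the 21 tested members, and for 32.3% of all tested genes.

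Promoter windows of 300 bases from RefSeq (GRCm38.p6) matched 20 of the 37 members, in 22 windows. A pair is shown to set a gene of high level beside a gene of low level, Hoxa5 at 12.99 FPKM and Hoxd13 at 0.0130 FPKM. Capitals mark CpG dinucleotides, the sites of DNA methylation, which are dense at promoters that Polycomb complexes can bind.
Hoxa5, chr6:52204538-52204837, minus strand: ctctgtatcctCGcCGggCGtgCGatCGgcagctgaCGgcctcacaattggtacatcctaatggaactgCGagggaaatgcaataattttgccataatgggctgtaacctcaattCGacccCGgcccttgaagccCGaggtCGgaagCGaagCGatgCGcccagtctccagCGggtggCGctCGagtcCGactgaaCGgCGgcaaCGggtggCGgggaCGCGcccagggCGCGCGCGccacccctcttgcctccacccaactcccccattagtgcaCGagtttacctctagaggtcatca
Hoxd13, chr2:74667975-74668274, plus strand: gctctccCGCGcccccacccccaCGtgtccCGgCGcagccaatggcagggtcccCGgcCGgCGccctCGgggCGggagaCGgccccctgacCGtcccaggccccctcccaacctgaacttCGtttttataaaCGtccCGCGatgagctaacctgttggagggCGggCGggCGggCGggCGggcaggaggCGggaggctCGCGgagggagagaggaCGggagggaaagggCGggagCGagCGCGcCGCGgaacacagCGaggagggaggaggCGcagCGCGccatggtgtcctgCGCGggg
The Hoxa5 window held 29 CpG and the Hoxd13 window 37. The median over the 22 Hox windows was 14.5, against 7 over all 32851 windows of the same length. In windows of members averaging under 0.1 FPKM (7 windows of 6 genes) the count ran from 4 to 45 with a median of 20, and in those averaging at least 1 FPKM (13 windows of 12 genes) from 4 to 29 with a median of 13. CpG counts of silent and of used members thus covered overlapping ranges. A TATAAA on either strand was in 4 of 22 Hox windows, among them that of Hoxd13, and in 13.62% of all windows. The letters TGATTNAT, which Hox and Pbx proteins can bind as a pair, were on either strand of 2 Hox windows, those of Hoxa2 and Hoxd11, and in 3.22% of all windows.

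Other genes inside the clusters were mostly weak. Of 28 listed genes other than Hox genes there, 5 were tested. Limma called 0 of them, voom called 0, and 0 had an unadjusted limma p under 0.05. The antisense gene Hoxb5os averaged 2.58 ± 0.871 FPKM in TMAO and 2.19 ± 0.834 FPKM in Control, and Hotair, a long noncoding RNA of the Hoxc cluster, 0.282 ± 0.134 FPKM in TMAO and 0.160 ± 0.0344 FPKM in Control (SD, n = 3 each). Hotair had 14, 5 and 8 reads in the TMAO libraries and 4, 6 and 5 reads in the Control libraries, with overlapping groups and TMAO 1 highest. The locus Mir196a-1 had 10, 8 and 5 reads in the TMAO libraries and 7, 6 and 8 reads in the Control libraries, and Mir10a had 1, 8 and 0 reads in the TMAO libraries and 0, 0 and 3 reads in the Control libraries. Reads of a poly(A) library in these loci come from longer transcripts and do not measure the mature microRNAs printed above.

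The genes flanking the clusters and the TALE cofactors gave 0 calls by limma, 0 by voom and 0 genes with an unadjusted limma p under 0.05. Among 8 tested neighbours of the clusters the median log2 fold change was 0.052. Mtx2, next to the Hoxd cluster, and Cbx5, next to Hoxc, had the highest levels, 23.8 ± 0.894 FPKM in TMAO and 24.6 ± 0.718 FPKM in Control for Mtx2 and 20.3 ± 0.697 FPKM in TMAO and 20.8 ± 0.898 FPKM in Control for Cbx5 (SD, n = 3 each). Mtx2 thus stood above every Hoxd gene. Of 11 TALE genes 10 were tested, with a median log2 fold change of -0.0094. Tgif1, a TALE repressor, had the highest level of them and averaged 9.44 ± 0.197 FPKM in TMAO and 9.01 ± 0.783 FPKM in Control. Meis1, which binds DNA beside Hox proteins, had 1.28, 1.23 and 1.248 FPKM in the TMAO libraries and 1.02, 1.20 and 1.11 FPKM in the Control libraries, all TMAO libraries above Control (log2 fold change 0.093, limma adjusted p = 0.686).

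Of 20 tested Polycomb genes limma called 0 and voom 0, with 2 at an unadjusted limma p under 0.05 and a median log2 fold change of 0.011. Phc3 and Ring1, subunits of the complex that ubiquitinates histone H2A, had the smallest p-values, with log2 fold changes of 0.21 for Phc3 (limma adjusted p = 0.364) and 0.22 for Ring1 (limma adjusted p = 0.367). The histone-binding genes Rbbp7 and Rbbp4 had the highest levels, 88.3 and 25.4 FPKM over the 6 libraries. Among 12 tested trithorax and demethylase genes limma called 0, voom called 1, beside 0.89% of all genes, and 4 had an unadjusted limma p under 0.05, beside 13.1% of all tested genes. Of the 12, 9 were above 0, beside 60.0% of all tested genes, and the median was 0.12. Kmt2d, a histone H3 methyltransferase gene, had 1.71, 1.43 and 1.496 FPKM in the TMAO libraries and 1.09, 1.17 and 0.916 FPKM in the Control libraries, without overlap (log2 fold change 0.30, limma adjusted p = 0.207). Psip1, a chromatin tether of the Kmt2a complex, had 10.6, 10.3 and 10.3 FPKM in the TMAO libraries and 11.9, 12.2 and 11.7 FPKM in the Control libraries, without overlap in the other direction (log2 fold change -0.19, limma adjusted p = 0.189). The gene called by voom was Kmt2d, with a log2 fold change of 0.55 on recovered reads (voom adjusted p = 0.00884).

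The retinoic acid list held some of the more abundant genes. Aldh1a1, an enzyme that makes retinoic acid, averaged 98.9 ± 2.003 FPKM in TMAO and 102 ± 1.60 FPKM in Control (SD, n = 3 each). Of 14 tested genes limma called 0 and voom 0, and 5 had an unadjusted limma p under 0.05, beside 13.1% of all tested genes. Of the 14, 9 were above 0, beside 60.0% of all tested genes. The log2 fold changes had a median of 0.075 and a lowest value of -0.23. All 3 TMAO values exceeded all 3 Control values for 4 genes, beside 12.4% of all tested genes. They lay below for 1, beside 6.23%. Nr2f1, a nuclear receptor gene that retinoic acid induces, had 4.88, 4.90 and 5.34 FPKM in the TMAO libraries and 3.58, 4.35 and 3.87 FPKM in the Control libraries, without overlap (log2 fold change 0.29, limma adjusted p = 0.164). Crabp1, which binds retinoic acid in the cytoplasm, averaged 89.2 ± 3.69 FPKM in TMAO and 80.5 ± 4.01 FPKM in Control, also without overlap (log2 fold change 0.15, limma adjusted p = 0.255).

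Transcription factors that mark other origins of the aortic wall were read beside the Hox genes. In the neural crest and arch list 5 of 19 listed genes were tested, led by Prrx1 and Twist1, general mesenchymal factors, at 21.3 and 15.9 FPKM. The crest genes Pax3, Foxd3 and Sox10 averaged 0.00641, 0.00434 and 0.136 FPKM, and Hand2 5.50 FPKM. Of 8 second heart field genes 3 were tested, with Gata6 at 4.51 FPKM and the cardiac factors Nkx2-5 and Tbx20 at 0.0250 and 0.0114 FPKM. In the paraxial and lateral mesoderm list 7 of 13 were tested, led by Osr1 at 38.6 FPKM, with Foxc2 and Meox2, a somite gene, at 5.95 and 5.75 FPKM. Meox2 had 5.54, 5.18 and 5.26 FPKM in the TMAO libraries and 6.24, 6.36 and 5.95 FPKM in the Control libraries, without overlap (log2 fold change -0.18, limma adjusted p = 0.260). In these 3 lists limma called 0 genes and voom 0, and Meox2 was the 1 gene with an unadjusted limma p under 0.05. The median log2 fold changes of the 3 lists were -0.086, 0.084 and -0.073. All 3 TMAO values lay below all 3 Control values for 3 of 7 tested mesoderm genes, beside 6.23% of all tested genes. They lay above for 1 of 5 tested neural crest and arch genes, beside 12.4%. In the caudal and paraHox list 1 of 4 listed genes was tested, Gdf11, a signal that acts on posterior Hox genes in the embryo, with 6.08 ± 0.602 FPKM in TMAO and 6.33 ± 0.631 FPKM in Control (SD, n = 3 each; log2 fold change -0.05, limma adjusted p = 0.858). The caudal factor genes Cdx1 and Cdx4, upstream of Hox genes in the embryo, averaged 0.0123 and 0.00514 FPKM.

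**Figure D4:**
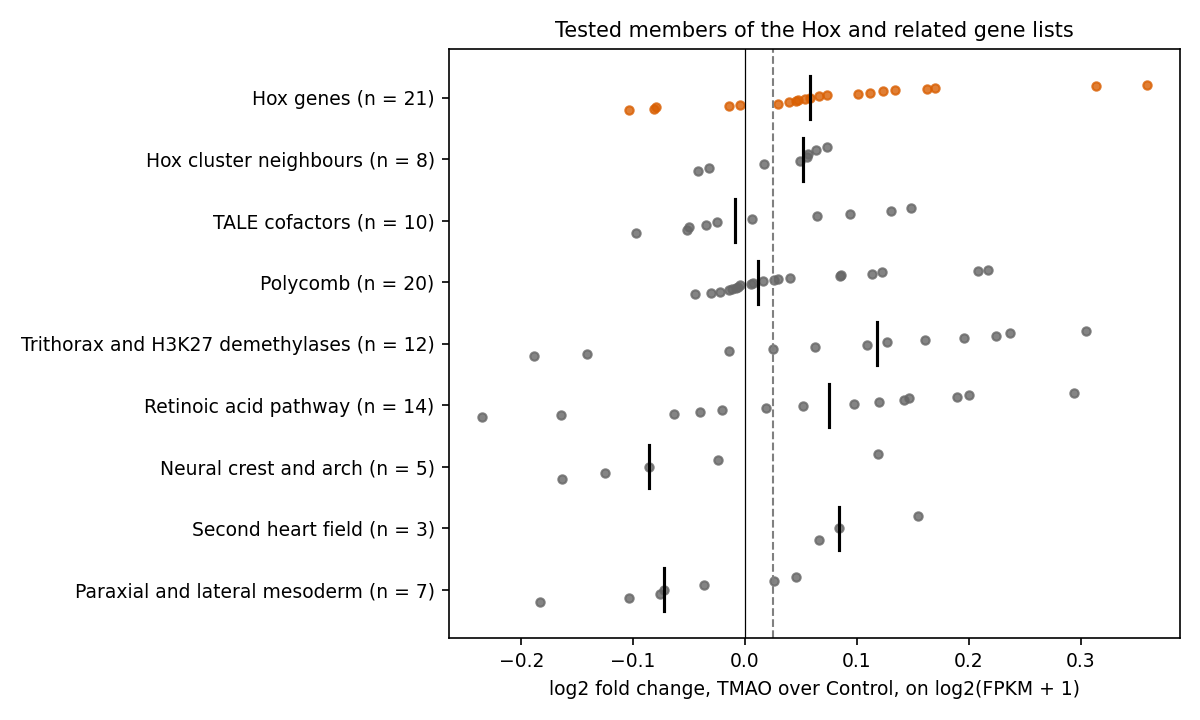
Log2 fold change, TMAO over Control, of tested Hox genes (orange) and of tested members of related lists (grey), with 1 point per gene, a black bar at each list's median, a solid line at 0 and a dashed line at the median of all tested genes. No point belongs to a gene past the limma adjusted p of 0.05.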

How the data were processed

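Poly(A) RNA of 6 libraries, 3 of cells given TMAO and 3 of control cells, was sequenced. The authors deposited FPKM values per gene and library. Per the labels' protocols, Trizol was used for RNA and a TruSeq stranded kit for the libraries. Per the submitters' processing notes, the build was mm10 and the tools included Trimmomatic, HISAT2, Cufflinks and HTSeq. Annotation release, strand setting and read length were not given in the sources used here. Libraries were grouped by title.

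FPKM was tested as log2(FPKM + 1) with limma 3.58.1 in R 4.3.3 (trended, robust variance, two-sided) on the 11062 genes that reached 1 FPKM in 3 or more libraries, with Benjamini-Hochberg adjustment over all of them and a threshold of 0.05. Intervals are 95% intervals of the fit. The fit was tested on simulated data with a fixed spread that was not taken from the replicates. It recovered 54% of genes changed 1.25-fold and 90% of those changed 2-fold. Only genes above a set number of reads were changed there. The rates hold for that spread and those genes and do not give the power for the Hox genes. Of its 173 calls 8.09% were false. Reads were recovered from FPKM, GENCODE exon lengths and the implied total, and were whole within 0.01 reads for 98.5% of the genes with a length, the 37 Hox genes included. They show depths of 14991252 to 16806728 reads per library, and values that rest on few reads carry a wide counting error. Replicates of a group differed by more than sampling noise, by a chi-square of 3.01 to 7.28 per degree of freedom over genes with at least 20 reads on average.

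Members and gene lists were chosen with earlier results of these data known. Every Hox gene enters the counts and sums, and some single items are not reported here. Hox genes with a mean of at least 1 FPKM are given in every library, and lists are named by at most the 4 tested genes with the smallest p and the 2 with the highest level. Hotair, the microRNA loci, Cdx1, Cdx4, Pax3, Foxd3, Sox10, Nkx2-5 and Tbx20 are named in addition and were chosen after their values were seen. Alternatives were quantile and median-ratio scaling, other filters and pseudocounts, limma without the robust option, a replicate block, voom on recovered reads and leaving out each library.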

Additional observations from a re-analysis of the deposited data

How the results depend on the processing

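In each of the 14 alternatives 0 Hox genes were called. The summed Hox level, TMAO over Control, was 1.07 times as deposited, 1.04 with median-ratio factors and 1.05 to 1.09 with 1 library left out. Over all genes the 20 calls became 0 with no filter and 97 with voom on recovered reads, and ran from 11 to 56 with 1 library left out (11 without Control replicate 3, 12 without TMAO replicate 1, 56 without TMAO replicate 2). The causes were not tested. The numbers in the titles showed no sign of pairing the libraries. Deviations of libraries with the same number correlated at -0.086, -0.10 and 0.056 across genes, and those with different numbers at -0.061 to 0.14. With 3 libraries per group these correlations cannot exclude a pairing. With the replicate number as a block, 22 genes and 0 Hox genes were called.

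Of 294 log2 fold changes of the 21 tested Hox genes under the alternatives, 280 kept their direction and 14, in 7 genes, turned, none of them in a gene that was called. With 1 library left out, the values ran from -0.065 to 0.15 for Hoxa7, -0.018 to 0.10 for Hoxa10, -0.091 to 0.22 for Hoxb4, -0.045 to 0.17 for Hoxb8, -0.062 to 0.069 for Hoxb9, -0.023 to 0.28 for Hoxc5 and -0.080 to 0.096 for Hoxc9. The sign turned without Control replicate 1 for Hoxa7, Hoxb4, Hoxb8 and Hoxc5, without Control replicate 2 for Hoxb9 and Hoxc9, without TMAO replicate 1 for Hoxb4, without TMAO replicate 2 for Hoxa7, Hoxa10 and Hoxb9, and without TMAO replicate 3 for Hoxc9. Quantile normalization gave -0.0072 for Hoxb4, median-ratio factors -0.0068 for Hoxa10 and voom 0.0066 for Hoxc9. Median-ratio factors moved the median of all tested genes to -0.0086 and quantile normalization to -0.0026, against 0.025 as deposited. With 3 libraries per group and members of few reads, depth limits what can be seen in the 16 untested genes.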
